A study of Mus musculus with 4 samples.

Results

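The serum amyloid A genes Saa1, Saa2, Saa3 and Saa4, the orosomucoid genes Orm1, Orm2 and Orm3, the haptoglobin gene Hp and the lipocalin gene Lcn2 are the 9 members described here, found by symbol among the 32285 genes of the count files. The set was chosen by symbol after levels of acute phase genes in the same sections had been looked at, so the tests below are no independent support for the choice. They were measured by Visium spatial transcriptomics in 4 mouse liver sections, in which each spot is a small area of tissue that can hold several cells of different types. Section STAM20w came from liver of the STAM model at 20 weeks, and section STAM16w from the same model at 16 weeks. STAM is a metabolic model of liver cancer that the labels tie to steatohepatitis and type I diabetes. Section DEN30w came from liver of the fibrotic liver cancer model DEN+CCl4 (written DEN+CCL4 in the labels) at 30 weeks, and section DEN22w from that model at 22 weeks. All 4 sections were fresh frozen and came from livers in which tumours are induced, and no section of untreated liver entered the comparisons. Whether the weeks are an age or a time on treatment, and whether sections came from separate animals, is not given in the sources used here. Each group is 1 section, and the 2 models share no week, so model and time cannot be told apart.

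Acute phase proteins are plasma proteins that hepatocytes secrete in larger or smaller amounts when inflammation is present. Interleukin 6, acting through Stat3, and interleukin 1, acting through NF-kB, together with factors of the C/EBP family, are the textbook inducers of their genes. Saa1 and Saa2 encode the acute forms of serum amyloid A, which travel on high density lipoprotein and can deposit as amyloid. Saa3 encodes a form made in mice by macrophages and fat cells as well as by liver, and Saa4 encodes the constitutive form. Orosomucoids are plasma carrier proteins for small molecules, haptoglobin binds free haemoglobin, and lipocalin 2 binds bacterial siderophores and thereby withholds iron.

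The 4 Saa genes lie side by side on mouse chromosome 7 and the 3 Orm genes side by side on chromosome 4, by RefSeq's annotation of GRCm38.p6. Saa3 spans chr7:46711998-46719615, Saa4 chr7:46727992-46732603, Saa1 chr7:46740497-46743181 and Saa2 chr7:46751833-46754313. Orm1 spans chr4:63344556-63348163, Orm3 chr4:63356069-63359506 and Orm2 chr4:63362449-63365877. Hp spans chr8:109575128-109579172 and Lcn2 chr2:32384637-32387739. RefSeq's promoter table for that build held 7 of the 9 members, all but Orm1 and Hp. The 250 bases before the table's start site are printed for Saa1 and Saa2, because their levels moved together below. They are also printed for Saa3, whose levels put the sections in another order, and for Orm2 and Orm3, the Orm genes held there. Capitals mark matches, on either strand, to TTGCNNAA, a common core of C/EBP sites, and to GGG followed by any 5 bases and CC, a loose NF-kB core. The windows of Saa1, Saa3 and Orm3 overlap the annotated span of their own gene, which has more than 1 annotated start.
Saa1, chr7:46742981-46743230, minus strand: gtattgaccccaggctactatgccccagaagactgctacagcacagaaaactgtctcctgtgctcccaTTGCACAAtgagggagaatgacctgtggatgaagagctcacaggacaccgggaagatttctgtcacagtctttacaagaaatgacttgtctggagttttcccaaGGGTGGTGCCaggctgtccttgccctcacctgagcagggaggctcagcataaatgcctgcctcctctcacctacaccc
Saa2, chr7:46751583-46751832, plus strand: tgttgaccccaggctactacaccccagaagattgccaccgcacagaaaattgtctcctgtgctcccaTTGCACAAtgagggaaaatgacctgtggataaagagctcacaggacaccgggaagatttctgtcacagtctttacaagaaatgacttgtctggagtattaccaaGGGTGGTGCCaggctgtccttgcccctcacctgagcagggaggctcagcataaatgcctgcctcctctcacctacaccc
Saa3, chr7:46715677-46715926, minus strand: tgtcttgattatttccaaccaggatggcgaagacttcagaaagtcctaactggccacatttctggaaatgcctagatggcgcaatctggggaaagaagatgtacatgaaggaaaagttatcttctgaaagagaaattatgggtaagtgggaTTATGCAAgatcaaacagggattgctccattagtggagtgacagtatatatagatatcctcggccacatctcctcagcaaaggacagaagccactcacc
Orm2, chr4:63362199-63362448, plus strand: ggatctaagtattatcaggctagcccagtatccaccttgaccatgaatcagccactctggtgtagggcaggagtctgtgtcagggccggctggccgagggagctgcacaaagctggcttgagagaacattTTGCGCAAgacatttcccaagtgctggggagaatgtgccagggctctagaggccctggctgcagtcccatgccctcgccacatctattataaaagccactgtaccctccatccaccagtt
Orm3, chr4:63355908-63356157, plus strand: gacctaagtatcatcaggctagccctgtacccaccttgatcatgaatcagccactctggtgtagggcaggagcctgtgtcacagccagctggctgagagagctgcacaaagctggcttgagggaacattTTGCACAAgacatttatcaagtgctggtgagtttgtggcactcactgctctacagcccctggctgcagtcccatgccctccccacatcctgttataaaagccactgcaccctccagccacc

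The windows of Saa1 and Saa2 were 94.8% identical over 251 aligned columns, and those of Orm2 and Orm3 85.5% over 255. Every other pair of the 7 windows lay between 42.6% and 52.6%, the pair of Saa1 and Saa3 at 48.9%. The C/EBP core occurred in 7 of 7 members' windows, against 9.56% of all 32851 RefSeq promoter windows of this length. In Saa1 it was 182 to 175 bases before the start, in Saa2 183 to 176 bases and in Saa3 99 to 92 bases. The NF-kB core occurred in Saa1, Saa2, Saa4 and Lcn2, against 45.8% of all windows, and overlapped no C/EBP match. TTCNNNGAA, a core of Stat3 sites, occurred in 0 of the 7 windows and in 7.02% of all windows. These are matches of letters in a short window and not measured binding.

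After removal of spots under 500 UMIs (unique molecular identifiers, each counting 1 captured RNA molecule) or 250 genes, STAM20w kept 2833 of 2895 spots, STAM16w 2080 of 2082, DEN30w 2968 of 3073 and DEN22w 2746 of 2804. They held 40008457, 20700642, 34880049 and 22471682 UMIs in that order of sections. Alb, the hepatocyte gene for albumin, had a UMI in 100% of the kept spots of every section. The libraries share 1136 spot barcodes, which are positions on the array and not cells. A lower level in a spot or section cannot be told apart as fewer cells of a type or as less RNA per cell. Reads of near-identical genes (Saa1 with Saa2, and the Orm genes with each other) may be lost or divided unevenly, so the values of single genes in those families are uncertain.

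The 9 members together took 1.06% of all UMIs in STAM20w, 0.638% in STAM16w, 2.71% in DEN30w and 0.473% in DEN22w. Most members were highest in DEN30w, and Saa1, Saa2, Orm2 and Lcn2 were far lower in DEN22w than in the other sections. Because such levels were in view when the members were chosen, the values by section, by time and by model are a description, and no p-value of a member is given for them. Levels are UMIs of the gene per 1000000 UMIs of the section (CPM), and intervals are exact 95% Poisson or binomial intervals that cover counting error only.

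**Figure D1:**
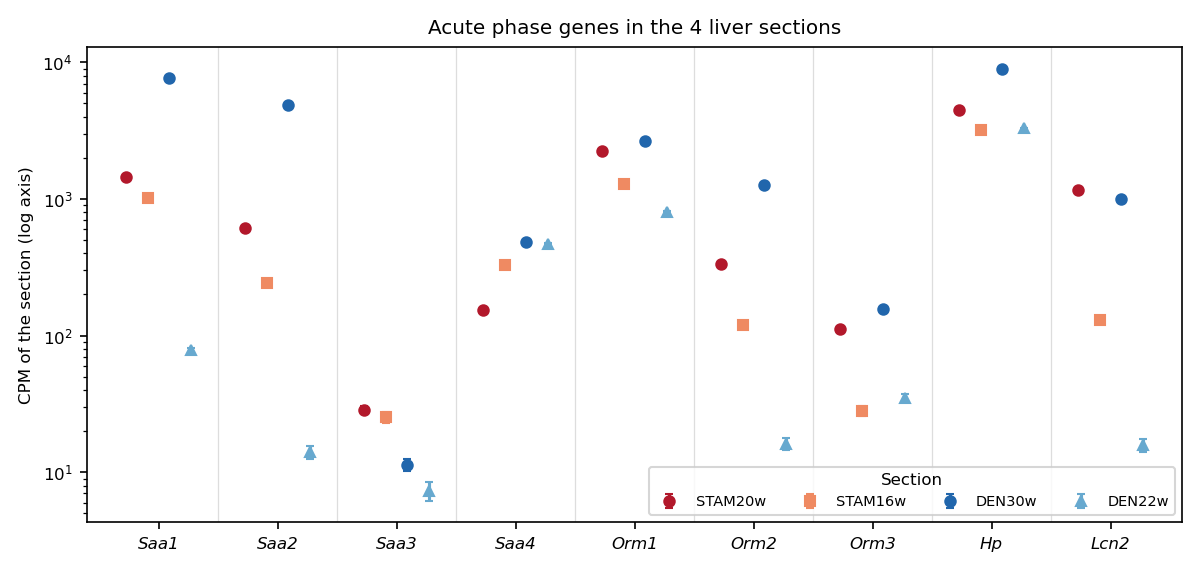
Level of each gene in each section, in CPM on a log axis, with 95% Poisson intervals that are mostly smaller than the points. Saa1, Saa2, Orm2 and Lcn2 spread over the widest range, from 78.1 to 7643 CPM for Saa1, while Saa4 and Hp spread least.

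Saa1 was at 1449 CPM in STAM20w, 1023 CPM in STAM16w, 7643 CPM in DEN30w and 78.1 CPM in DEN22w. Saa2 followed the same order, with 616 CPM in STAM20w, 242 CPM in STAM16w, 4912 CPM in DEN30w and 14.0 CPM in DEN22w. In DEN30w Saa1 was the 11th most abundant of all genes by UMIs, and in DEN22w it ranked 1729. DEN30w exceeded DEN22w 97.9-fold for Saa1 (95% interval 93.4 to 103) and 352-fold for Saa2 (315 to 394). STAM20w exceeded STAM16w by far less, 1.42-fold for Saa1 (1.39 to 1.44) and 2.55-fold for Saa2 (2.47 to 2.63). Saa2 made up 29.8% of the UMIs of the pair in STAM20w, 19.1% in STAM16w, 39.1% in DEN30w and 15.2% in DEN22w (95% intervals 29.5 to 30.1%, 18.6 to 19.6%, 39.0 to 39.3% and 13.7 to 16.8%). Its share was thus larger in the sections where the pair was higher.

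The median spot hardly differed between the STAM sections, at 895 CPM of Saa1 in STAM20w and 904 CPM in STAM16w. The spots at the 90th percentile did differ, at 3410 CPM in STAM20w and 1749 CPM in STAM16w. The 10% of spots with the most Saa1 held 38.5% of its UMIs in STAM20w and 21.4% in STAM16w. The excess of STAM20w therefore sat in a minority of spots. In the DEN+CCl4 model the whole distribution was apart: the 10th percentile of DEN30w, 2678 CPM, was above the 90th percentile of DEN22w, 213 CPM. Saa1 had a UMI in 95.6% of spots in STAM20w, 98.2% in STAM16w, 99.4% in DEN30w and 38.1% in DEN22w. After each spot was thinned to 2000 UMIs and shallower spots were left out (leaving 2623, 2038, 2630 and 2547 spots), these shares were 77.0%, 82.1%, 99.8% and 13.2%. The order of the STAM sections in these shares goes against that in CPM, so no order is read from them.

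Saa4, the constitutive form, went against its neighbours. It was at 155 CPM in STAM20w, 329 CPM in STAM16w, 484 CPM in DEN30w and 466 CPM in DEN22w. The ratio of DEN30w to DEN22w was 1.04 (95% interval 1.01 to 1.06), where that of Saa1, its neighbour in the cluster, was 97.9. STAM20w had 0.471 times the level of STAM16w (0.455 to 0.487), which made Saa4 the only member with a lower level in the later section of a model.

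Saa3 was sparse everywhere, at 28.7 CPM in STAM20w, 25.2 CPM in STAM16w, 11.4 CPM in DEN30w and 7.25 CPM in DEN22w. Both STAM sections were above both DEN+CCl4 sections, an order that no other member showed. The ratio of STAM20w to STAM16w was 1.14 (95% interval 1.02 to 1.26), and that of DEN30w to DEN22w 1.57 (1.304 to 1.89). A UMI of Saa3 was found in 26.0%, 17.2%, 11.4% and 5.06% of spots of STAM20w, STAM16w, DEN30w and DEN22w. The shares after thinning to 2000 UMIs were 5.72%, 4.66%, 2.74% and 1.26%.

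Orm1 was at 2254 CPM in STAM20w, 1287 CPM in STAM16w, 2668 CPM in DEN30w and 809 CPM in DEN22w. Orm2 covered a much wider range, with 334, 120, 1265 and 16.1 CPM in the same sections. Orm3 lay at 113, 28.0, 155 and 34.9 CPM. All 3 were higher in the later section of each model: STAM20w exceeded STAM16w 1.75-fold for Orm1, 2.78-fold for Orm2 and 4.02-fold for Orm3. DEN30w exceeded DEN22w 3.30-fold for Orm1, 78.7-fold for Orm2 (95% interval 71.0 to 87.6) and 4.45-fold for Orm3. Orm2 accordingly made up 12.4% of the family's UMIs in STAM20w, 8.38% in STAM16w, 30.9% in DEN30w and 1.87% in DEN22w.

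Hp was abundant in every section, at 4456 CPM in STAM20w, 3196 CPM in STAM16w, 8966 CPM in DEN30w and 3283 CPM in DEN22w, and had a UMI in at least 99.6% of spots of each. Its later over earlier ratios, 1.39 in STAM and 2.73 in DEN+CCl4, were small beside those of Lcn2. Lcn2 was at 1169 CPM in STAM20w, 130 CPM in STAM16w, 997 CPM in DEN30w and 15.8 CPM in DEN22w. The ratios for Lcn2 were 9.01 in STAM (95% interval 8.67 to 9.37) and 63.3 in DEN+CCl4 (57.0 to 70.4). Lcn2 and Saa3 were the 2 members whose highest section was STAM20w rather than DEN30w.

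In STAM, 4 members (Lcn2, Orm3, Orm2 and Saa2) were at least 2-fold higher in the later section among genes at 50 CPM or more, and 1 (Saa4) was at least 2-fold lower. Of all 2775 genes at that level, 7.42% were at least 2-fold higher and 3.71% at least 2-fold lower. In DEN+CCl4, 7 members were at least 2-fold higher in the later section (all but Saa3, which was under 50 CPM, and Saa4), against 2.58% of 2906 genes higher and 1.51% lower. Since such values were in view when the genes were chosen, the counts are given beside the background only as a description. Among the 2906 genes Saa2, Saa1, Orm2 and Lcn2 had the fourth to the seventh largest increase. Among the 2775 genes in STAM Lcn2 ranked 14 and Saa1 ranked 669. With 1 section on each side there is no replicate check, and the ratios compare these libraries. The leukocyte markers moved the same way: the 15-gene list made up 0.159% of UMIs in STAM20w, 0.0885% in STAM16w, 0.173% in DEN30w and 0.0932% in DEN22w, and its part in the ratios was not tested. With the leukocyte-rich spots described below left out, the ratio of every member kept its direction and its side of 2-fold. In other subsets of spots 3 members of STAM crossed 2-fold. Saa4 in STAM20w was at 0.521 times its level in STAM16w without compact patches and at 0.549 times in periportal spots, Saa2 at 1.41 times in pericentral spots and Saa1 at 2.12 times in periportal spots. In pericentral spots alone Saa1 was lower in STAM20w than in STAM16w, with a log2 ratio of -0.28, and in periportal spots alone it was higher, with 1.08. Only 531 of the 708 pericentral spots of STAM20w lay outside the compact patches described below, in which Saa1 was low. The pericentral ratio was not computed without the patches, so it is not read as a value of pericentral liver.

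Between models, edgeR's quasi-likelihood test on section sums called 0 members, and 0.437% of 14417 genes (0.291% higher and 0.146% lower in STAM), from which nothing is read, since section levels were in view when the members were chosen. Saa3 had a log2 difference of STAM minus DEN+CCl4 of 1.71 (SE 0.23). For the inducible members the 2 sections of a model were far apart: Saa1 had a log2 difference of -1.41 with an SE of 1.57, and Saa2 of -2.31 with an SE of 1.93. Without DEN30w these values turned to 4.07 and 5.003, so their sign rested on that section.

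The other 22 positive acute phase genes fixed in a list included some with narrower ranges. Hpx, the haem carrier hemopexin, was at 5424 CPM in STAM20w, 3525 CPM in STAM16w, 8453 CPM in DEN30w and 2793 CPM in DEN22w. C3, the central complement component, was at 4269, 3649, 10718 and 6007 CPM, and Fgb, a fibrinogen chain, at 3875, 2719, 4919 and 3074 CPM. Hamp, the iron hormone hepcidin, was highest in DEN22w, at 1361 CPM in STAM20w, 1514 CPM in STAM16w, 3437 CPM in DEN30w and 5776 CPM in DEN22w. The metallothionein Mt1, also among the genes most like Saa1 below, had 2516, 2496, 3079 and 243 CPM. None of the 22 was called between models, and none of the 10 genes listed as negative acute phase, led by Alb, Ttr, Ahsg and Trf.

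Among cytokine genes of the lists, Il6 and Il22 were close to undetected and interleukin 1 genes were found at low levels. Il6 had 7 UMIs in STAM20w, 1 in STAM16w, 1 in DEN30w and 0 in DEN22w, and Il22 had 0 in every section. Il1b had 192, 60, 285 and 29 UMIs in STAM20w, STAM16w, DEN30w and DEN22w, and Il1a had 154, 94, 164 and 77. Stat3, which carries the interleukin 6 signal, was at 81.5, 79.9, 150 and 75.5 CPM in STAM20w, STAM16w, DEN30w and DEN22w. Its feedback inhibitor Socs3 was at 13.9, 6.09, 19.2 and 5.34 CPM, so both were highest in DEN30w. Of the 18 genes of the interleukin 6 family list 13 were tested between models and 0 were called. All 4 of its most abundant genes (Stat3, Lifr, Il6st and Jak1) were expressed in every section. The 15 genes of the interleukin 1, TNF and NF-kB list and the 8 hepatic transcription factors also had 0 calls between models.

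The next question was whether the members follow the axis of the liver lobule, from the central vein to the portal tract. A zone score was computed for each spot from 10 periportal and 10 pericentral marker genes, none of them a member. The upper 25% of spots of each section were compared with the lower 25%, as sums per section with the section as a block. In STAM20w both zones took in spots of the compact tumour-like patches described below, where Saa1 was low. Outside the patches lay 531 of 708 pericentral spots, with 6816746 of 11333871 UMIs. Of 708 periportal spots 477 lay outside, with 7082632 of 9648134 UMIs, so the zones of STAM20w are not the lobule axis alone. Of the members, 5 were higher in periportal spots (Saa1, Saa2, Orm3, Orm1 and Saa4) and 0 lower, where 4.09% of 12196 genes were called higher and 3.87% lower (7.96% in all). Without TMM scaling, which corrects library sizes for differing composition, the split of all calls was 248 higher and 981 lower, against 499 and 472, and the median of all genes was -0.15 on the log2 scale.

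Saa1 was at 2360 CPM in periportal against 779 CPM in pericentral spots of STAM20w, and at 1114 against 943 CPM in STAM16w. In DEN30w it was at 12186 against 3787 CPM, and in DEN22w at 108 against 49.9 CPM. Periportal spots were higher in 4 of 4 sections, with a log2 ratio of 0.24 in STAM16w and of 1.11 to 1.69 in the others. The fitted log2 difference was 1.31 (SE 0.23, adjusted p = 0.0065, edgeR). Over 4 successive bins of the zone score with 25% of spots each, counted from the pericentral end, Saa1 was higher at each step in every section, for example with 3787, 5302, 8078 and 12186 CPM in DEN30w.

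**Figure D2:**
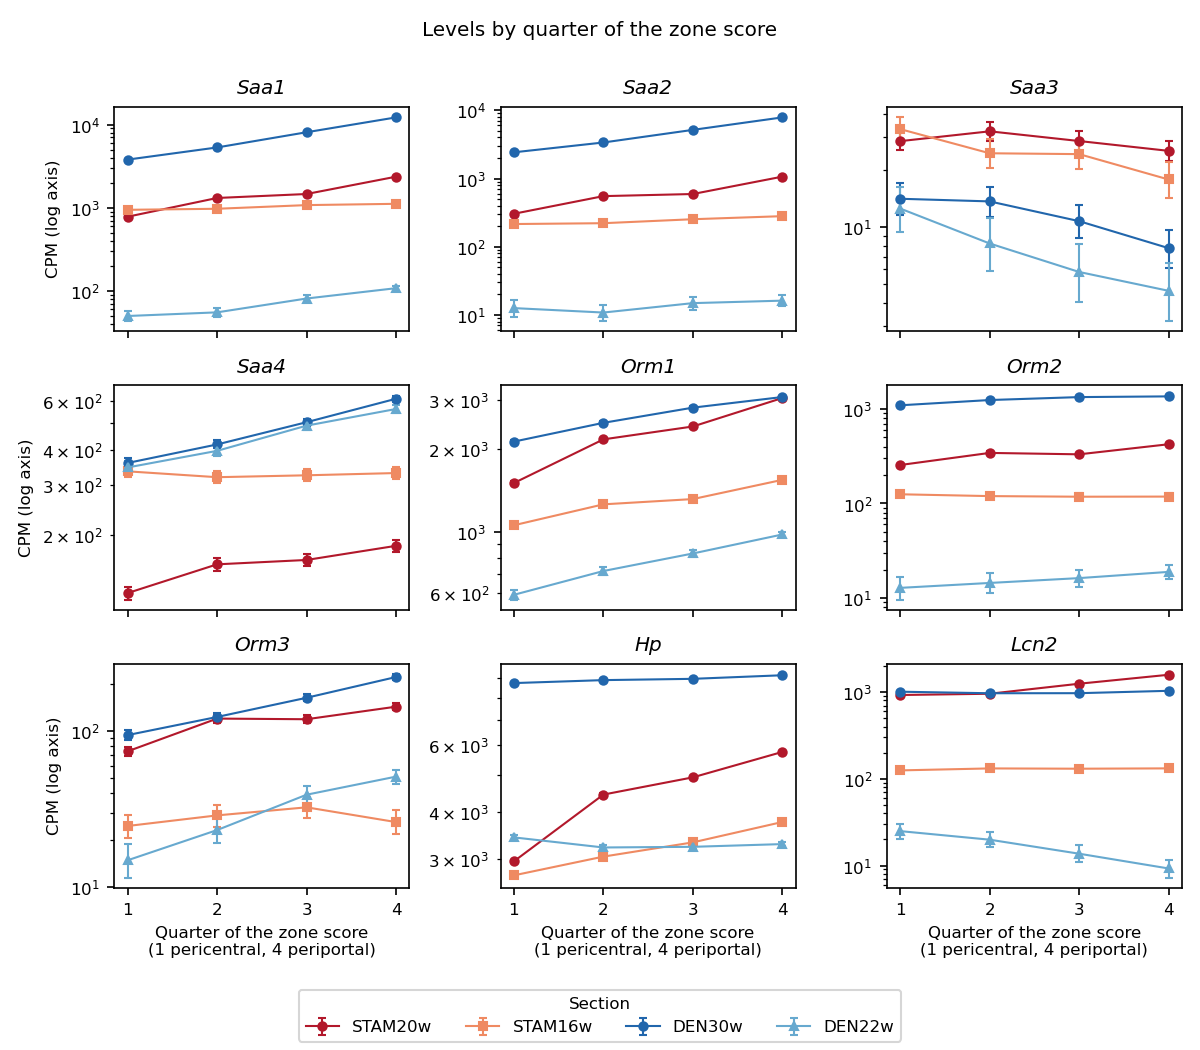
Level of each gene in CPM (log axis) in 4 bins of the zone score with equal numbers of spots, from pericentral (1) to periportal (4), with 1 line for each section and 95% Poisson intervals. Saa1 and Orm1 rise at every step in all 4 sections, Saa3 is lower at every step in 3 sections, and Lcn2 is lower at every step in DEN22w.

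Saa2 differed by a log2 value of 1.303 (SE 0.25, adjusted p = 0.010, edgeR), with section values of 1.81 in STAM20w, 0.38 in STAM16w, 1.70 in DEN30w and 0.36 in DEN22w. Orm3 differed by 1.16 (SE 0.20, adjusted p = 0.0065), though in STAM16w it was at 26.2 CPM in periportal and 24.7 CPM in pericentral spots. Orm1 had the most even difference, 0.85 (SE 0.12, adjusted p = 0.0021), with 1.02, 0.55, 0.54 and 0.73 in STAM20w, STAM16w, DEN30w and DEN22w. Saa4 differed by 0.64 (SE 0.14, adjusted p = 0.020) and was level in STAM16w, with 332 CPM in periportal and 337 CPM in pericentral spots. Its call was lost without DEN30w (adjusted p = 0.098) and without DEN22w (adjusted p = 0.106).

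The other members did not pass. Saa3 was lower in periportal spots in 4 of 4 sections, at 25.4 against 28.6 CPM in STAM20w, 17.9 against 33.1 CPM in STAM16w, 7.77 against 14.2 CPM in DEN30w and 4.62 against 12.6 CPM in DEN22w. Its fitted value was -0.58 (SE 0.16, adjusted p = 0.057, edgeR), and it passed in 6 of the alternative settings. Orm2 had a value of 0.50 (adjusted p = 0.054) and Hp of 0.50 (adjusted p = 0.087). Hp was higher in periportal spots of STAM20w (5755 against 2959 CPM) and STAM16w (3758 against 2717 CPM) and nearly level in DEN30w (9173 against 8747 CPM) and DEN22w (3286 against 3423 CPM). Lcn2 had no common direction, with 0.77 in STAM20w, 0.08 in STAM16w, 0.03 in DEN30w and -1.43 in DEN22w (fit 0.16, adjusted p = 0.755). In DEN22w, where Lcn2 was rare, it was at 9.25 CPM in periportal against 24.9 CPM in pericentral spots.

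Marker lists of other cells moved with the zones as well. The leukocyte list made up 0.128%, 0.0798%, 0.111% and 0.0631% of UMIs in periportal spots of STAM20w, STAM16w, DEN30w and DEN22w, against 0.166%, 0.0918%, 0.266% and 0.152% in pericentral spots. Of its 15 genes 9 fell in periportal spots and 0 rose. With leukocyte-rich spots left out the value of Saa1 was 1.33 and that of Orm1 0.82, and with zones matched on UMI total 1.22 and 0.80. Alb, as a general hepatocyte gene, had a value of 0.46 (adjusted p = 0.196), with 0.93 and 0.55 in the STAM sections and -0.24 and 0.04 in DEN30w and DEN22w.

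Other positive acute phase genes shared the gradient: 12 of 22 rose in periportal spots, 0 fell, and the median log2 difference was 0.52, against -0.00 for all genes tested. Those that rose were Hamp (1.13), Hpx (0.76), Fga (0.76), Lbp (0.74), Serpina3n (0.73), Fgb (0.71), Itih3, Fgg, Itih4, Crp, Serping1 and Agt. C3 did not pass (0.39, adjusted p = 0.111). Of the 10 genes listed as negative acute phase, Igf1 (0.79) and Serpina1a (0.68) rose. Cyp7a1, the rate-limiting enzyme of bile acid synthesis, fell by 1.17, and the median of the list was 0.32. The place of Serpina1a in that list was set by choice and was not tested here. None of the 12 tested genes of the interleukin 6 family list was called. In the interleukin 1, TNF and NF-kB list the receptor subunit Il1rap rose (0.65, adjusted p = 0.0071) and the receptor Il1r1 fell by 0.35 (adjusted p = 0.042), with 14 genes tested. Of the 8 transcription factors Cebpa rose (0.35, adjusted p = 0.031, edgeR) and Cebpd fell by 0.39 (adjusted p = 0.027). Whether either bears on the C/EBP matches above was not tested. Among the receptors and scavengers, Hmox1, the haem oxygenase that degrades haem taken up with haptoglobin, fell by 0.96 (adjusted p = 0.016), with 9 of 11 genes tested.

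The difference between zones was also tested for a difference between the models. No member passed this interaction test in edgeR, in which 0.462% of 12986 genes were called, and the smallest adjusted p of a member was 0.17, for Orm3. The members called changed when 1 section was left out. In such fits 1 model is a single section, assumed to vary like the others, so nothing is read from their calls.

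Saa3 and Lcn2 are known products of leukocytes as well as of hepatocytes, so the 10% of spots with the largest UMI share of 15 leukocyte genes were set against as many spots of matched UMI total from those at or below the median of that share. The numbers of leukocyte-rich spots were 283 in STAM20w, 208 in STAM16w, 297 in DEN30w and 275 in DEN22w. Saa3 rose in leukocyte-rich spots, while Saa1, Saa2, Saa4, Orm1, Orm2 and Orm3 fell. In this comparison 7.39% of 9913 genes were called higher and 7.34% lower (14.7% in all). Without TMM scaling the split of all calls was 1298 higher and 246 lower, against 733 and 728, with a median of all genes of 0.13 on the log2 scale.

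Saa3 was at 43.5 CPM in leukocyte-rich against 24.8 CPM in matched spots of STAM20w, 44.1 against 17.6 CPM in STAM16w, 25.6 against 10.9 CPM in DEN30w and 16.1 against 8.07 CPM in DEN22w. It was higher in 4 of 4 sections. These levels rest on few UMIs, from 114 and 65 in STAM20w to 24 and 12 in DEN22w. The fitted log2 difference was 0.92 (SE 0.16, adjusted p = 7.8e-05, edgeR). Matching within the same region of the section gave 1.04, and matching within the same bin of the zone score, a setting added after the data were seen, gave 0.72. With spots ranked by collagen genes or by neutrophil genes in place of leukocyte genes, Saa3 no longer passed (0.39, adjusted p = 0.199, and 0.51, adjusted p = 0.265).

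Saa1 was at 960 CPM in leukocyte-rich against 2274 CPM in matched spots of STAM20w and at 3626 against 8734 CPM in DEN30w. In STAM16w it was at 1071 against 1053 CPM and in DEN22w at 61.1 against 70.6 CPM, so the fall was carried by 2 of the 4 sections. The fitted value was -0.91 (SE 0.14, adjusted p = 2.1e-05, edgeR), and that of Saa2 was -0.97 (SE 0.19, adjusted p = 0.00034), although Saa2 was higher in leukocyte-rich spots of STAM16w (317 against 222 CPM). Orm3 fell by 0.86, Saa4 by 0.65, Orm1 by 0.58 and Orm2 by 0.45 on the log2 scale. Leukocyte-rich spots lay more often on the pericentral side: 37.1%, 25%, 63.0% and 62.9% of them in STAM20w, STAM16w, DEN30w and DEN22w were in the pericentral bin, against 19.8%, 23.1%, 12.8% and 19.3% of the matched spots. Matched within the bin of the zone score, Saa1 fell by 0.42 (adjusted p = 9.9e-05) and Orm1 by 0.36, and matched within the region by 0.34 and 0.28. DESeq2 did not call Saa1 (adjusted p = 0.163) or Saa2 (adjusted p = 0.586). The call of Orm2 was lost without DEN30w (adjusted p = 0.080).

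Hp (-0.25, adjusted p = 0.051) and Lcn2 (-0.13, adjusted p = 0.523) did not pass. Lcn2 was at 1044 CPM in leukocyte-rich against 1306 CPM in matched spots of STAM20w, 143 against 116 CPM in STAM16w, 967 against 967 CPM in DEN30w and 32.2 against 15.5 CPM in DEN22w. Its sign turned without TMM scaling, to 0.01. The high Lcn2 sections thus had no excess in leukocyte-rich spots, while in the section where Lcn2 was rare the leukocyte-rich spots had 48 UMIs and the matched spots 23.

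**Figure D3:**
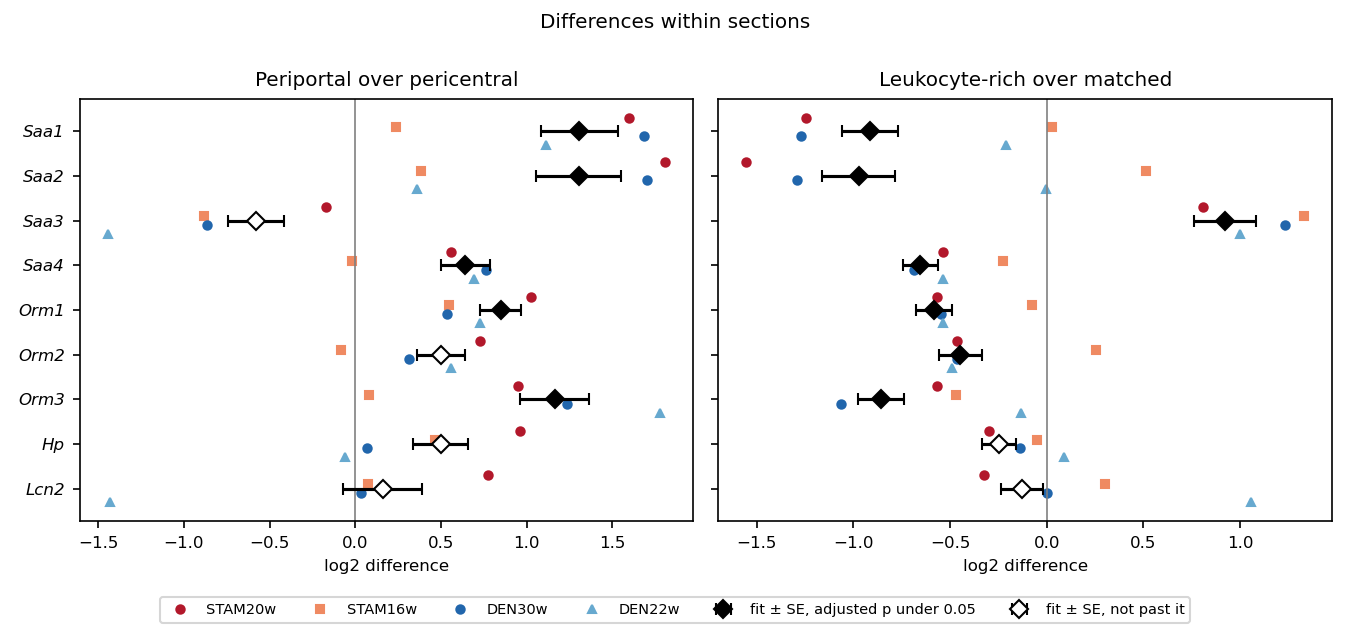
The log2 difference of each gene between zones (left) and between leukocyte-rich and matched spots (right): diamonds are the edgeR fits with their SE, filled where the adjusted p is under 0.05, and coloured points are the ratios of CPM in each section. The fitted values of Saa3 lie opposite to those of the other serum amyloid genes in both panels, and STAM16w lies nearest to 0 for Saa1.

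Other marker lists were also higher in leukocyte-rich spots. All 6 Kupffer cell markers and all 9 markers of collagen-producing cells rose, against 7.39% of 9913 genes. So did the 3 of 11 neutrophil markers that could be tested. Kupffer cells and neutrophils are themselves leukocytes, so the rise of their markers follows in part from how the spots were chosen. The summed neutrophil list made up 0.0163%, 0.00230%, 0.00948% and 0.00181% of UMIs in leukocyte-rich spots of STAM20w, STAM16w, DEN30w and DEN22w, against 0.00668%, 0.00145%, 0.00455% and 0.000874% in matched spots. Kupffer markers made up 0.117%, 0.0857%, 0.0591% and 0.0487% of UMIs in the leukocyte-rich spots, against 0.0465%, 0.0375%, 0.0373% and 0.0247% in matched spots. Collagen markers made up 0.101%, 0.0429%, 0.135% and 0.0607%, against 0.0279%, 0.0223%, 0.0384% and 0.0276%. Cxcr2, a defining receptor of neutrophils, had 0 UMIs in both classes of STAM20w, STAM16w and DEN22w, and 3 in leukocyte-rich against 0 in matched spots of DEN30w. Which of these cells carries the Saa3 signal was not tested.

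Of the other 22 positive acute phase genes 16 fell, 0 rose and 6 did not pass, where 7.34% of all genes fell, at a median of -0.33 against -0.02 for all genes tested. Among them were Lbp (-0.58), Hamp (-0.56), Fga (-0.48), Fgb (-0.45), Hpx (-0.40) and C3 (-0.28). Of the negative list 5 of 10 fell, Serpina1a, Igf1, Ahsg, Alb (-0.30) and Ttr (-0.28), and 0 rose. Alb was nonetheless slightly higher in leukocyte-rich spots of DEN30w, with a log2 ratio of 0.03, as was Apoa1 in DEN30w (0.16) and DEN22w (0.14). In the other direction Il1b, the gene of interleukin 1 beta, rose by 1.37 (adjusted p = 0.0010), and the NF-kB genes Relb (1.18) and Nfkb2 (0.69) rose with it, while Il1rap fell by 0.59, with 13 of 15 genes of that list tested. Cebpd rose by 0.55 and Hnf4a and Creb3l3 fell by 0.31 each, of 8 factors. Of the receptors and scavengers, the formyl peptide receptor Fpr1 (1.28), Hmox1 (0.95) and Cd163, the receptor that takes up haptoglobin with haemoglobin (0.91), rose, with 6 of 11 genes tested. The spots were chosen by leukocyte genes, so rises of genes that leukocytes express, such as Il1b, may follow in part from that choice. No signalling is read from these rises. In the interleukin 6 family list none of the 12 tested genes was called. No member passed the interaction with the model, in which 0.287% of 10800 genes were called, and the smallest adjusted p was 0.53, for Saa4. The members called changed here too when 1 section was left out, in fits that again hold a single section of 1 model and from which nothing is read.

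Spots of each section were clustered into regions with the members left out of the clustering, and the members' levels in the regions are a description. In STAM20w 3 regions formed compact patches, with at least 85.8% of neighbour contacts inside the region and a marker of the tumour-like list among their leading genes. The region led by Cpe and Maoa (171 spots) had 266 CPM of Saa1, that led by Cib3 and Akr1c18 (269 spots) 616 CPM, and that led by H19 and Afp (222 spots) 326 CPM, against 1599, 1489 and 1550 CPM in all other spots. Saa2 was lower still relative to the rest, at 107, 233 and 96.3 CPM. Lcn2 went the other way in 2 of the 3, with 890 CPM in the Cpe region, 1814 CPM in the Cib3 region and 1964 CPM in the H19 region, against 1205, 1138 and 1098 CPM elsewhere. Within the H19 region Orm2 was at 79.0 CPM against 357 CPM elsewhere, while Hp was at 5411 against 4370 CPM, so members did not change together there.

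The highest Saa1 level of STAM20w was in a region of 65 spots led by Noct and Etnppl, with 6503 CPM of Saa1 and 3419 CPM of Saa2 against 1333 and 551 CPM elsewhere. Orm1 (4762 against 2196 CPM), Saa4 (344 against 151 CPM) and Lcn2 (1517 against 1161 CPM) were also higher there. The region led by Cyp17a1 and Serpina1e (483 spots) had 2966 CPM of Saa1 and 1382 CPM of Lcn2, against 1093 and 1119 CPM elsewhere. High Lcn2 thus stood with low Saa1 in some regions and with high Saa1 in others. In the collagen-rich region led by S100g and Col1a1 (168 spots) Saa1 was at 620 CPM.

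**Figure D4:**
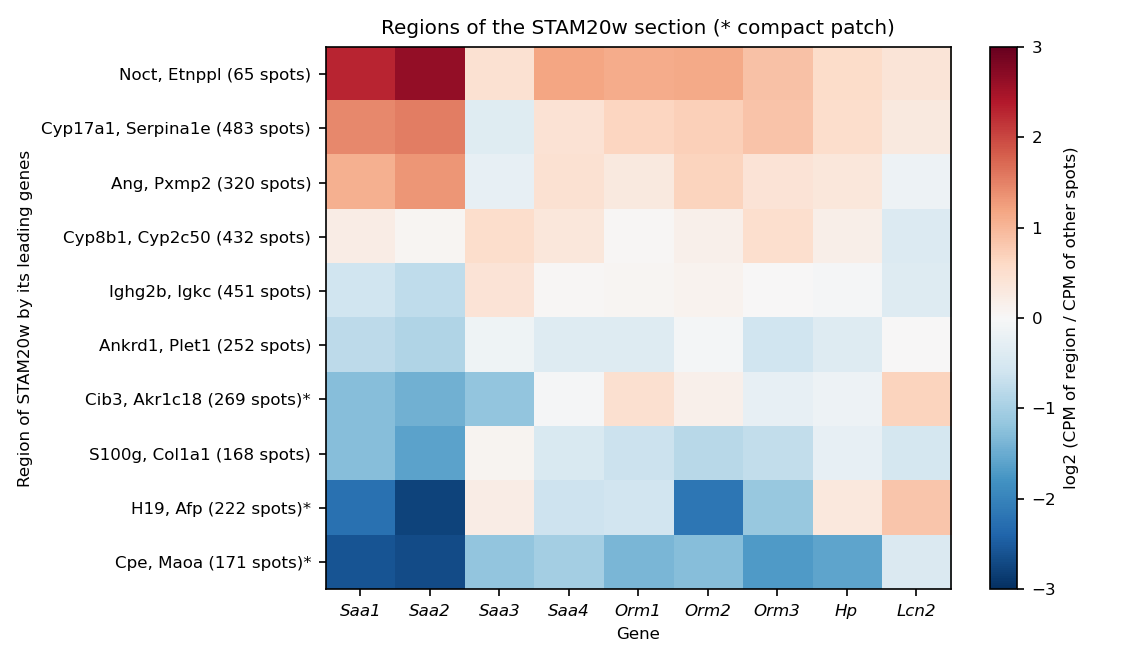
For each region of STAM20w (rows, with 2 leading genes and the number of spots) and each gene (columns), the log2 ratio of the CPM in the region to that in all other spots. Saa1 and Saa2 are lowest in the patches of Cpe and H19 and highest in the Noct region. Lcn2 is above the rest in the patches of H19 and Cib3 and, by less, in the Noct and Cyp17a1 regions.

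STAM16w was more even. Its regions lay between 525 and 1104 CPM of Saa1, the lowest being a region of 16 spots led by Cyp2a4, Gstm3 and Afp. That small region had 421 CPM of Lcn2 against 127 CPM elsewhere (3.31-fold), so that low Saa1 and high Lcn2 stood together there as in the H19 region of STAM20w. In DEN30w the region led by Etnppl and Sds (855 spots) had 11477 CPM of Saa1 and that led by Meg3 and Cyp2a5 (1120 spots) 5229 CPM, with Lcn2 at 1039 and 1007 CPM. In DEN22w the region led by Pck1 and Etnppl (1136 spots) had 103 CPM of Saa1 and that led by Gstm3 and Gstm2 (1156 spots) 52.2 CPM.

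**Figure D5:**
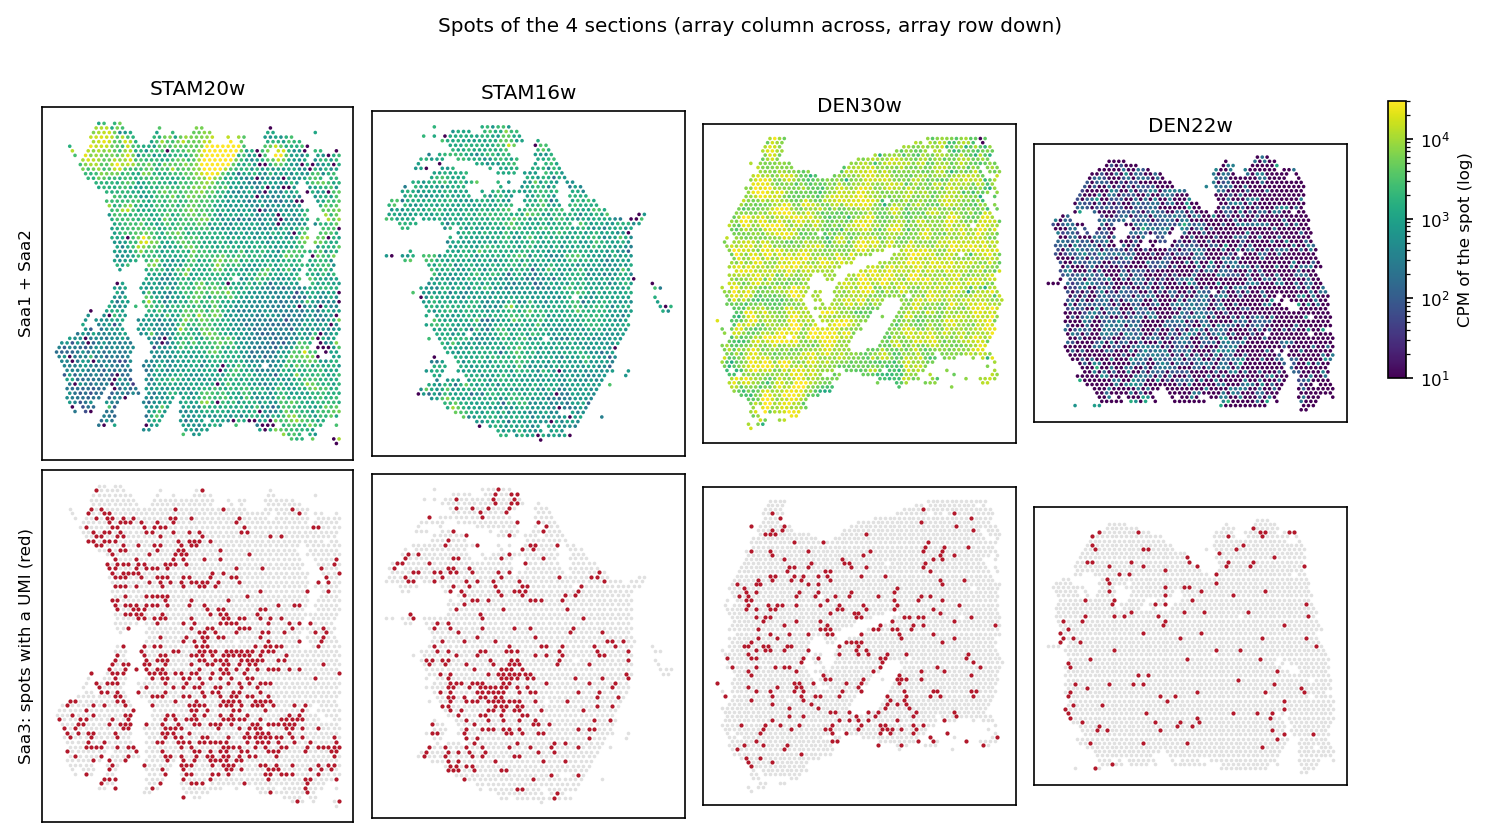
Maps of the spots of the 4 sections: in the upper row the summed CPM of Saa1 and Saa2 on a log colour scale, and in the lower row spots with at least 1 UMI of Saa3 in red. The acute forms are high in nearly all of DEN30w and in a few areas of STAM20w, and Saa3 is scattered, with denser areas in the STAM sections.

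Adjacent spots were compared next. Moran's I, which is near 0 for a random arrangement and near 1 when adjacent spots are alike, was 0.68 for Saa1 in STAM20w, 0.26 in STAM16w, 0.46 in DEN30w and 0.13 in DEN22w. For Hp it was 0.65, 0.24, 0.12 and 0.06, and for Saa3 0.10, 0.16, 0.03 and 0.04. Clustering in space was thus strongest in STAM20w for Saa1 and Hp, and low counts limit the value for Saa3.

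Over the spots of a section, Saa1 and Saa2 correlated with r = 0.76 in STAM20w (2833 spots), 0.37 in STAM16w (2080), 0.72 in DEN30w (2968) and 0.11 in DEN22w (2746). Saa1 correlated with Orm1 with r = 0.55, 0.20, 0.42 and 0.14, and with Lcn2 only with 0.15, 0.16, 0.14 and 0.02. Saa3 and Saa1 had r = 0.10, 0.12, -0.06 and 0.03, which in such sparse counts is no finding. These values are a description, since spots of a section share a library, and low counts hold r down, most of all in DEN22w. In the same order of sections, the log10 UMI total of the spot had r = -0.01, 0.21, 0.36 and 0.24 with Saa1. With Orm1 it had 0.06, 0.12, 0.37 and 0.40, and with Lcn2 0.11, 0.17, 0.38 and 0.03. The part of spot depth in the correlations of gene pairs was not tested. Among 8563 genes, those most like the sum of Saa1 and Saa2 by the mean r over the 4 sections were Serpina1c (0.37), Wfdc21 (0.35), Mt1 (0.34), Pck1 (0.34) and Hpx (0.32). For Orm1 and Orm2 they were Serpina1c (0.39), Serpina1b, Fga, Serpina1d and Hpx, and for Hp they were Hpx (0.31), Serpina1b, Fgb, C3 and Ahsg. Lcn2 had weaker partners, Apoc2 (0.15), Clu, Ly6e, Lrg1 and Apoa1. No gene exceeded a mean r of 0.08 with Saa3.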

How the data were processed

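UMI counts per spot and gene were deposited by the authors as 1 sparse matrix for each of 4 Visium liver sections, made with Space Ranger 1.3.1 and STAR on mm10, per the submitters' processing notes; filters are not given in the sources used here. Spot positions, barcodes and feature rows are the other deposited columns used. Every spot of the matrices lay over tissue. Spots with at least 500 UMIs and 250 genes were kept and no normalization beyond CPM was applied to levels. The members and gene lists were chosen with earlier results of these data known.

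Sums of counts per section, zone or spot class were tested with edgeR 4.0.16 (TMM, filterByExpr, quasi-likelihood, Benjamini-Hochberg, threshold 0.05) in R 4.3.3, with section as a block in comparisons within sections, and with DESeq2 1.42.0 as an alternative. Spots of 1 section are not replicates. Nothing in the labels says that sections are separate animals, so p-values measure only the spread between these sections. Zone scores and spot correlations used log2 of the spot's CPM plus 100, and leukocyte classes the share of the spot's UMIs, matched within 0.1 in log10 of the UMI total. Regions came from Leiden clustering (resolution 0.6) in scanpy 1.11.5, without the members. The genes named are the 9 members, of each list the called genes and the 4 most abundant, the 5 genes most like each of 5 member sums (with a UMI in at least 5% of spots of every section), and regions by leading genes. The edgeR fits were also run on simulated counts, whose spread was set by choice and not taken from these sections, and no result above rests on them. Alternatives covered the test, scaling, filter, spots, zones, matching, block and each section left out.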

Additional observations from a re-analysis of the deposited data

Results flagged for a closer look

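The later and the earlier section differed in opposite directions for Saa4. The log2 ratio of STAM20w to STAM16w was -1.09, with 155 CPM in STAM20w and 329 CPM in STAM16w, and that of DEN30w to DEN22w was 0.052, with 484 CPM in DEN30w and 466 CPM in DEN22w. With 1 section at each time the difference between the models was not tested.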

How the results depend on the processing

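No paired analysis was possible because each group has 1 section and the labels give no number that pairs sections; the section block compares spots of the same section. The count of genes called between models, 63, was 1475 with DESeq2, 14 without TMM scaling, 1872 without the filter on low counts and 2 to 922 with 1 section left out. The zone count, 971, was 1724 without that filter, 628 with the upper and lower 10%, 1544 without compact patches, 447 to 1118 with 1 section left out, and 0 without the section block, where edgeR had 437 genes at an unadjusted p under 0.05. The leukocyte count, 1461, was 539 with DESeq2, 48 with the neutrophil list, 967 with the collagen list, 854 matched within the region, 2574 with no match on depth, 841 to 1540 with 1 section left out, and 0 without the section block (525 at an unadjusted p under 0.05 in edgeR). The zone interaction, 60, was 12 with DESeq2, 483 without the filter (4 members called) and 101 to 1402 with 1 section left out (0 to 5 members). The leukocyte interaction, 31, was 3 with DESeq2 and 30 to 50 with 1 section left out (0 to 3 members). The cause was not tested in any of these.

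Between models, leaving out 1 section gave log2 differences of -2.40 to 4.07 for Saa1, -3.31 to 5.003 for Saa2, -0.37 to 1.21 for Orm1, -2.27 to 3.88 for Orm2, -1.51 to 1.06 for Orm3, -0.999 to 0.31 for Hp and -1.69 to 5.40 for Lcn2, and Orm3 was at 0.12 in pericentral spots alone. Lcn2 ranged from -0.069 to 0.42 between zones and from -0.25 to 0.049 between leukocyte classes with 1 section left out. In the leukocyte classes Lcn2 was 0.011 without TMM, 0.0043 with the neutrophil list, 0.079 matched within the region and 0.017 matched within the zone bin. In pericentral spots alone, with those of the compact patches of STAM20w included, the later over earlier log2 ratio in STAM was -0.28 for Saa1 and -0.21 for Saa3. Alternatives of the interactions, and the match within the zone bin, were chosen after seeing the data. Over members and settings, direction and side of the threshold were kept in 111 zone values (16 newly passed, 7 were lost and 1 reversed), in 114 leukocyte values (6 newly passed, 19 were lost and 5 reversed) and in 103 model values (3 newly passed and 11 reversed). With 1 section left out, a comparison of models holds a lone section that is assumed to vary like the others. Low counts limit Saa3 everywhere, and Saa2, Orm2 and Lcn2 in DEN22w.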
